A study of Mus musculus with 20 samples.

Results

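Intercalated cells of the collecting duct (cluster IC) were taken as the cells that carry this cluster name in the authors' annotation of kidney single-cell RNA-seq after ischemia-reperfusion injury (IRI). They numbered 2011 of 113579 cells, or 1.77%, and ranked 14th of 18 clusters by size. A second annotation by the authors, which also covers the inhibitor-treated kidneys, held 2481 cells under the name CD-IC among 136794 cells, or 1.81%. The kidneys came from male C57Bl/6J mice of 10 to 12 weeks with no genetic change named. Mice had bilateral clamping of the renal pedicles for 23 min (IRI short) or 30 min (IRI long), and 2 libraries were made at each of 1, 3 and 14 d after either ischemia time. They were compared with 6 control libraries, whose handling the labels do not describe beyond their name. Inhibitor libraries of 14 d after long ischemia were also made, 1 from a mouse given VX-765 at 100 mg/kg and 1 from a mouse given liproxstatin at 10 mg/kg. The inhibitors were injected intraperitoneally 30 min before ischemia and every 24 h thereafter. A sham operation and a vehicle are described for that second set of experiments, whereas the IRI long 14 d libraries used beside the inhibitors are those of the first set.

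Intercalated cells lie singly among the principal cells of the collecting duct and connecting tubule and regulate acid-base balance. Type A cells secrete protons through an apical vacuolar proton pump, and type B cells secrete bicarbonate through the exchanger pendrin. Atp6v1g3 and Atp6v0d2 encode subunits of this pump that are typical of intercalated cells, and the transcription factor Foxi1 is needed for the cell type. Principal cells take up sodium and water, and the choice between both fates is governed by Notch signalling. The tables used here give cluster names, groups and map positions of cells without gene values. The name of the cluster was therefore taken from the authors' annotation, was not checked against Atp6v1g3 and Atp6v0d2, and does not separate type A from type B cells.

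Libraries are named here by the prefix that their cell names share, and the labels tie this prefix to a group but not to a replicate number. Each library was taken as 1 mouse, and p-values measure the spread between libraries. Libraries held 2064 to 14320 cells. By their shared barcodes the libraries fell into sets that no label gives. In 5 of the 6 control libraries pairs shared 0.977 to 1.67 barcodes per 1000000 pairs of cells, compared with 0.0746 to 0.529 among the remaining control library (norm5) and all IRI and inhibitor libraries. Group and barcode set cannot be told apart in these 5 libraries, so that values of norm5 are given beside the measures compared with control. No barcode was shared between the IC cells of different libraries, and 75 IC cells had a barcode that also occurred in any cluster of another library. Control libraries norm3 and norm4 stood apart from the other control libraries by high IC fractions, and folds and calls are given without them where a fold moves by over 1.5 times or a call changes.

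IC cells made up a smaller fraction of all cells in every IRI library than in any control library, and the smallest fraction 14 d after long ischemia. In control, 535 IC cells were 3.74% of the library Scl, 121 were 3.06% of norm1, 202 were 3.06% of norm2, 177 were 7.79% of norm3, 337 were 8.31% of norm4 and 146 were 2.19% of norm5. After short ischemia the fractions were 0.548 and 0.947% at 1 d, 0.587 and 1.11% at 3 d, and 1.26 and 0.620% at 14 d. After long ischemia they were 0.328 and 0.726% at 1 d, 0.627 and 0.291% at 3 d, and 0.156 and 0.166% at 14 d. The control and IRI libraries did not overlap, whereas those of IRI short and IRI long did. Such an absence of overlap was seen for 61.1% of all clusters after short and 44.4% after long ischemia, and in the direction of IC, lower than control, for 16.7% of clusters in either. The control mean was 4.69% ± 2.65 (SD, n = 6). IRI short had a 5.54-fold lower mean of 0.846% ± 0.304, and IRI long a 12.3-fold lower mean of 0.382% ± 0.240 (SD, n = 6 each). Without norm3 and norm4 the control mean was 3.01%, and the means were 3.56-fold lower in IRI short and 7.88-fold lower in IRI long.

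**Figure D1:**
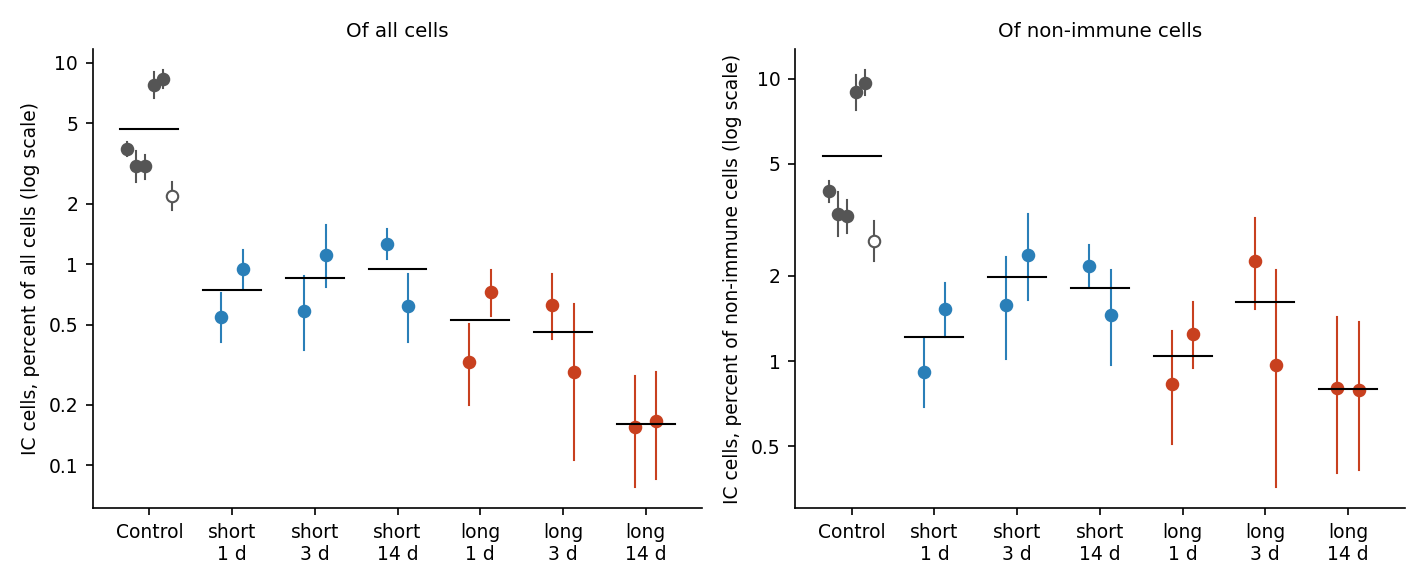
IC cells as percent of all cells (left) and of non-immune cells (right) on log axes, by group and day. Points are libraries with exact 95% binomial intervals, which cover counting error only, horizontal lines are group means, and the open circle is norm5; control libraries lie above all IRI libraries in both panels, from 2.19% of all cells upward.

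The fractions of all clusters were compared with limma on the logit scale, adjusted over the 18 clusters. IC fell by 1.67 in IRI short (SE 0.29, adjusted p = 3.46e-05), where 66.7% of clusters passed the test and 16.7% passed it as lower. IC fell by 2.56 in IRI long (SE 0.29, adjusted p = 1.84e-07), where 83.3% passed and 33.3% passed as lower. No cluster had a more negative difference than IC in IRI long against control. IC ranked 3rd from the lowest in IRI short. Both comparisons use the same 6 control libraries. With the barcode set as a further term, chosen after seeing the data, the difference was -1.01 in IRI short and -1.90 in IRI long. These are the differences to norm5 alone, the 1 control library in the barcode set of the IRI libraries. The call in IRI short was lost, and that in IRI long rests on this 1 control library. The fraction in norm5 was 2.19% (exact 95% binomial interval 1.85 to 2.57%), above the 1.26% (1.06 to 1.49%) of the highest IRI library.

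The fall was present at the first time point. Differences to control on the logit scale were -1.78, -1.66 and -1.57 at 1, 3 and 14 d after short ischemia (SE 0.41 each, adjusted p = 0.000748, 0.00122 and 0.00354). The values were -2.16, -2.27 and -3.25 after long ischemia (SE 0.41 each, adjusted p = 0.000123, 5.61e-05 and 1.49e-06). Among all clusters 55.6, 72.2 and 55.6% passed at these days in IRI short, 16.7% as lower at each day. In IRI long 61.1, 88.9 and 72.2% passed, and 16.7, 27.8 and 38.9% passed as lower. The call at 14 d in IRI short was lost without IRF8 (-1.22, adjusted p = 0.102) and among non-immune cells (-0.99, adjusted p = 0.0557). With the barcode set as a term, where control rests on norm5 alone, the 3 calls in IRI short were lost. The differences in IRI long were then -1.51, -1.61 and -2.59 at 1, 3 and 14 d.

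The fraction of all cells that were IC cells was lower after long than after short ischemia in limma, a call that depended on the test. The difference over all days was -0.89 on the logit scale (SE 0.29, adjusted p = 0.0286), a comparison in which 27.8% of clusters passed. The means of the percentages differed by -0.464 percentage points (two-sided exact permutation within days, p = 0.0370), which did not pass adjustment over 36 comparisons (adjusted p = 0.0667). In limma the call was also lost with the arcsine square root (adjusted p = 0.365) and the centred log-ratio (adjusted p = 0.0607), and that at 14 d with the arcsine (adjusted p = 0.440). By day it was -0.38 at 1 d (SE 0.50, adjusted p = 0.743), -0.61 at 3 d (adjusted p = 0.843) and -1.68 at 14 d (adjusted p = 0.0130), and 5.56, 0 and 33.3% of clusters passed at these days. At 14 d 28 to 138 IC cells per library after short ischemia stood against 11 and 12 after long ischemia. The call over all days was lost in 7 of 18 fits that each left out 1 library. Among these were the fits without IRF3, IRF10, IRF1, IRF7, IRF12 and IRF9 (adjusted p = 0.0585 to 0.114). The call at 14 d was lost without IRF10 (-1.33, adjusted p = 0.177), IRF12 (adjusted p = 0.111) or IRF9 (adjusted p = 0.0571). From 1 and 3 d to 14 d the difference was 0.15 in IRI short (SE 0.43, adjusted p = 0.751; 11.1% of clusters passed) and -1.04 in IRI long (SE 0.43, adjusted p = 0.0794; 22.2% passed), and the difference between these changes was -1.18 (SE 0.61, adjusted p = 0.209; 5.56% passed).

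Immune cells moved with these fractions. They made up 6.11 to 17.8% of the cells of control libraries, 37.8 to 62.8% after short ischemia and 41.7 to 80.6% after long ischemia. IC cells were therefore also counted among the non-immune cells, where they remained lower after IRI. Their fraction was lowest in norm5 with 2.66% in control, with a median of 3.65 and a highest value of 9.68% in norm4. After short ischemia it ranged from 0.916 to 2.38% (median 1.55%), and after long ischemia from 0.792 to 2.26% (median 0.900%). All IRI libraries lay below all control libraries, as did 10% of the 10 non-immune clusters, which is IC alone. The mean was 3.18-fold lower in IRI short and 4.62-fold lower in IRI long than in control (two-sided exact permutation test, p = 0.00216 each, adjusted p = 0.00708 over 36 comparisons), and this p is the smallest that 924 ways can give. Without norm3 and norm4 the means were 1.98-fold and 2.88-fold lower. IRI long and IRI short overlapped and differed by 0.522 percentage points (exact permutation within days, p = 0.111). In limma the non-immune fraction likewise lost the calls for IRI long against IRI short (adjusted p = 0.200) and at 14 d (adjusted p = 0.256).

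Against all control libraries, IC was the one cluster among IC, PC, DCT and LOH that fell after short ischemia, beside both clusters of the proximal tubule (PT). In IRI short, principal cells (PC) differed from control by 0.09 on the logit scale (adjusted p = 0.750), loop of Henle cells (LOH) by 0.03 (adjusted p = 0.920) and distal convoluted tubule cells (DCT) by -0.22 (adjusted p = 0.433). The differences of the PT clusters PT S1 and PT S3 were -1.71 and -1.78 (adjusted p = 1.68e-05 and 3.32e-05), beside the -1.67 of IC. In IRI long all of these fell. The difference was -0.77 for PC, -1.09 for LOH, -1.31 for DCT, -2.05 for PT S1 and -2.09 for PT S3, compared with -2.56 for IC. PC stood at -0.03 and -0.30 relative to control at 1 and 3 d after long ischemia (adjusted p = 0.930 and 0.425) and fell by 1.98 at 14 d (adjusted p = 5.22e-05). Against norm5 alone the order differed, with PT S1 below IC in IRI long and LOH and DCT close to IC. In IRI short the differences to norm5 were -1.01 for IC, -0.05 for PC, -0.66 for LOH, -0.74 for DCT, -1.69 for PT S1 and -0.67 for PT S3. In IRI long they were -1.90 for IC, -0.91 for PC, -1.77 for LOH, -1.82 for DCT, -2.03 for PT S1 and -0.98 for PT S3.

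**Figure D2:**
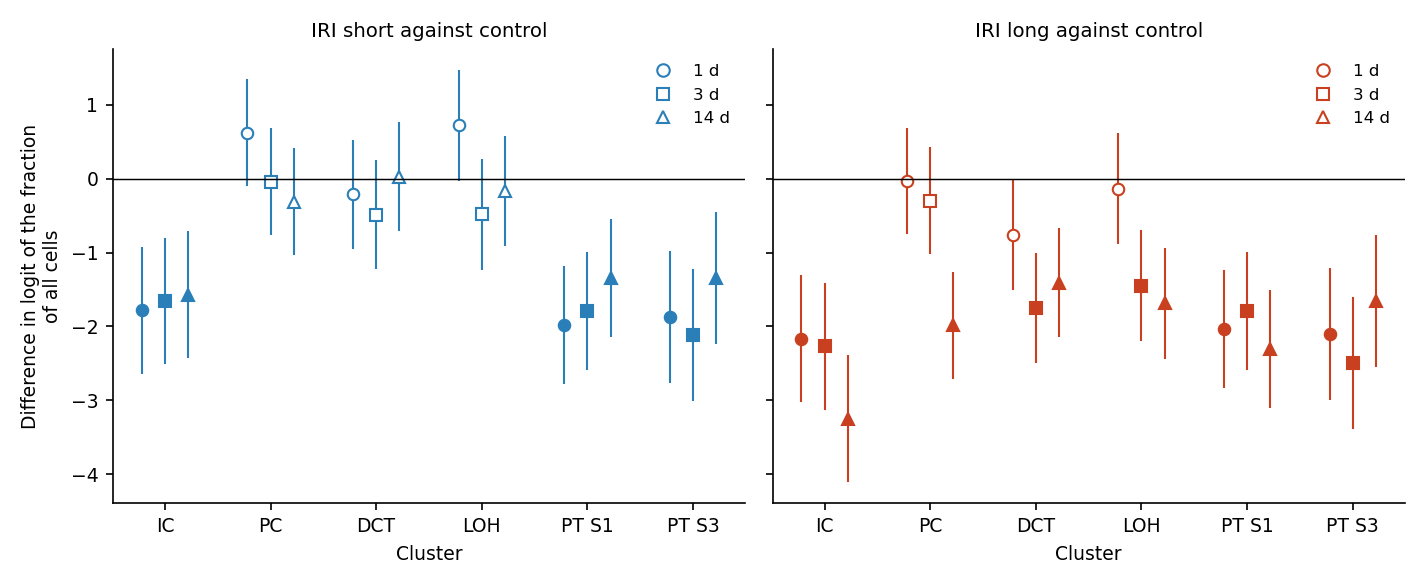
Difference to control in the logit of the fraction of all cells for 6 tubule clusters after short (left) and long (right) ischemia at 1, 3 and 14 d. Symbols are limma estimates with 95% confidence intervals, filled where the adjusted p over 18 clusters is under 0.05; IC is below zero at all days in both panels, whereas PC is filled at 14 d after long ischemia only.

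Within the collecting duct the balance of both cell types moved towards principal cells. Control libraries held 85.6 IC cells per 100 PC in Scl, 52.4 in norm1, 78.9 in norm2, 290.2 in norm3, 298.2 in norm4 and 49.7 in norm5. IRI short libraries held 9.89 and 10.8 at 1 d, 20.3 and 23.4 at 3 d, and 48.9 and 19.6 at 14 d. IRI long libraries held 15.0 and 11.4 at 1 d, 23.6 and 9.23 at 3 d, and 34.4 and 25.5 at 14 d. Every IRI library lay below every control library, although IRF10 with 48.9 came close to norm5. The ratio was 5.56-fold lower in IRI short and 5.82-fold lower in IRI long than in control (log2 differences -2.47 and -2.54, two-sided exact permutation test, p = 0.00216 each, adjusted p = 0.00708). Without norm3 and norm4, which held more IC than PC cells, it was 3.36-fold and 3.52-fold lower.

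As a share of IC and PC cells together, IC cells were 51.2% ± 18.9 in control. The share was 17.3% ± 8.63 after short and 16.1% ± 6.62 after long ischemia (SD, n = 6 each). Both IRI groups lay below control (exact permutation p = 0.00216 each, adjusted p = 0.00708). Against norm5 with 33.2%, the mean differed by -15.9 percentage points after short and -17.1 after long ischemia. IRI long and IRI short differed by 1.17 percentage points (exact permutation within days, p = 0.750), and the sign of this difference turned without IRF10 or IRF7.

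In the first annotation the mean share of IC cells in the collecting duct was higher at 14 d than at earlier days. This difference did not pass the adjusted test. After short ischemia the share was 13.6% at 1 and 3 d and 24.6% at 14 d, with 32.9% in IRF10 and 16.4% in IRF8. It was 12.7% at 1 and 3 d and 23.0% at 14 d after long ischemia, with 25.6% and 20.3%. Across both ischemia times the difference was 10.6 percentage points (two-sided exact permutation within ischemia time, 225 ways, p = 0.0222), which did not pass adjustment over 45 comparisons by day (adjusted p = 0.119). It also depended on single libraries. The difference was 6.49 percentage points without IRF10 (exact permutation p = 0.12) and 9.30 without IRF12 (exact permutation p = 0.0667). At 14 d after long ischemia the share rests on 11 IC and 32 PC cells in IRF12 and on 12 IC and 47 PC cells in IRF9. The second annotation joins principal and connecting tubule cells in its cluster DCT2, CNT, CD-PC. There the mean share of CD-IC was 7.97, 16.6 and 15.3% at 1, 3 and 14 d after short ischemia. After long ischemia it was 10.8, 15.8 and 13.1%, so that 14 d was not above 3 d after either ischemia time.

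**Figure D3:**
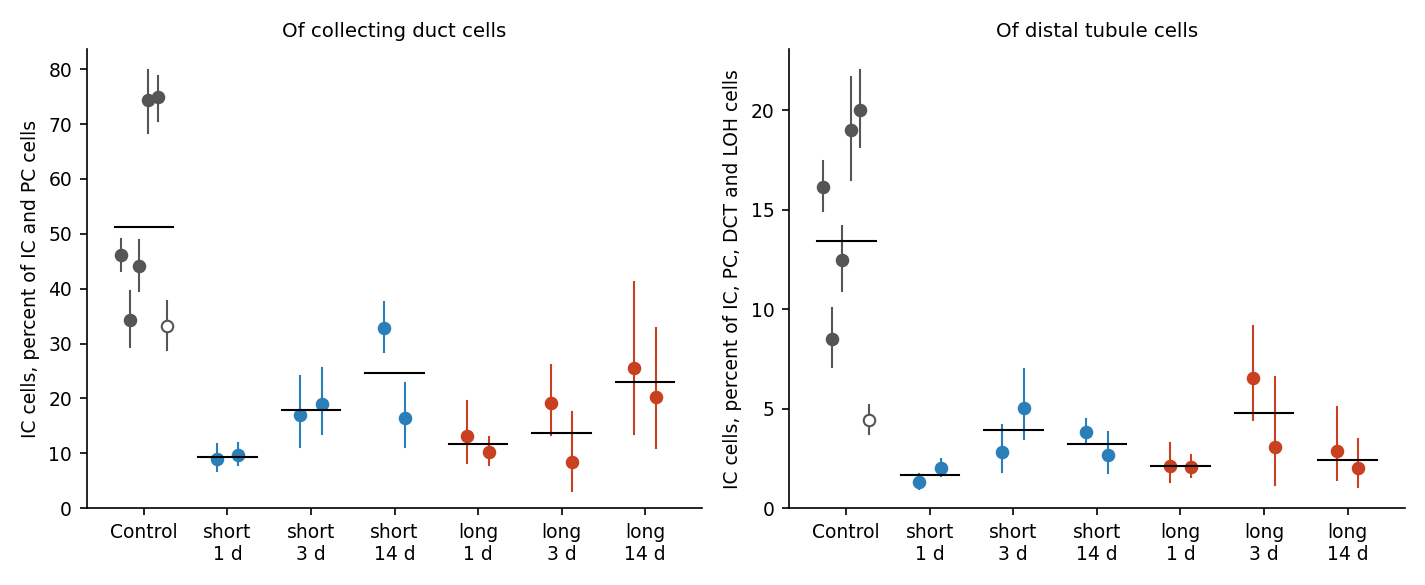
IC cells as percent of IC and PC cells (left) and of IC, PC, DCT and LOH cells (right), by group and day. Points are libraries with exact 95% binomial intervals, lines are group means, and the open circle is norm5, which lies above all IRI libraries on the left at 33.2% but among them on the right at 4.43%.

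A wider frame of distal tubule cells gave a less clear separation. Among IC, PC, DCT and LOH cells, IC cells were 4.43 to 20.0% in control libraries, with a median of 14.3%. They were 1.31 to 5.02% after short ischemia (median 2.73%) and 2.01 to 6.52% after long ischemia (median 2.50%). The lowest control value was that of norm5, and 1 library of either IRI group lay above it. The means differed from control by -10.5 percentage points after short and -10.3 after long ischemia (exact permutation p = 0.00433 each, adjusted p = 0.00917). Against norm5 alone the differences were -1.49 and -1.31. Single ratios showed the same order. IC cells per 100 DCT cells ran from 14.2 in norm5 to 76.3 in control, from 6.32 to 17.3 in IRI short and from 5.24 to 29.7 in IRI long, and the ratio was 4.19-fold and 3.62-fold lower after short and long ischemia (exact permutation p = 0.00433 and 0.0108, adjusted p = 0.00917 and 0.0216). IC cells per 100 LOH cells ran from 7.97 in norm5 to 45.2 in control, from 2.03 to 11.3 in IRI short and from 3.41 to 14.9 in IRI long (5.17-fold and 4.63-fold lower, exact permutation p = 0.00433 each, adjusted p = 0.00917).

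Relative to the proximal tubule, IC cells did not differ detectably after short ischemia. There were 4.66 to 21.1 IC cells per 100 PT cells in control libraries, 4.79 to 12.7 after short ischemia and 1.40 to 10.8 after long ischemia, and the groups overlapped. The log2 ratio was -3.52 ± 0.95 in control, compared with -3.67 ± 0.58 after short and -4.58 ± 1.12 after long ischemia (SD, n = 6 each). Neither IRI short (difference -0.15, exact permutation p = 0.732) nor IRI long (-1.05, p = 0.113) passed the test against control. The log2 ratios of norm3 and norm4, -2.41 and -2.24, were the highest in control. Without these libraries the sign in IRI short turned (0.45) and the difference in IRI long became smaller. The log2 ratio in norm5 was -3.79, from which IRI short differed by 0.12 and IRI long by -0.79. IRI long differed from IRI short by -0.91 (exact permutation within days, p = 0.0556, adjusted p = 0.0909). The lowest values in the first annotation were those of the libraries at 14 d after long ischemia, with 1.40 and 2.01 IC cells per 100 PT cells. In the second annotation these libraries held 5.00 (IRF12) and 1.85 (IRF9) CD-IC cells per 100 PT cells. The value of IRF12 was thus above the 2.67 of IRF1 and the 3.21 of IRF7. From 1 and 3 d to 14 d the log2 ratio differed by -1.25 over both ischemia times (exact permutation within ischemia time, p = 0.0133), which did not pass adjustment over 45 comparisons (adjusted p = 0.119).

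Among 6 tubule clusters, IC was the one whose cells most often kept 1 name when the authors annotated the cells again together with the inhibitor libraries. Of the 2011 IC cells, 1932 (96.1%) became CD-IC, compared with 82.5% of PC cells under their leading second name, 59.5% of PT S3, 57.9% of PT S1, 44.5% of LOH and 43.4% of DCT cells. Some of these names were divided further in the second annotation, so that the percentages are not matched in resolution. The largest other destination was DCT1 with 30 cells, 25 of them from control. In control 97.0% of 1518 IC cells kept the name, as did 93.6% of 357 after short and 91.9% of 136 after long ischemia. The mean percentage per library was 97.1 in control, compared with 93.3 after short and 86.4 after long ischemia, and neither IRI group passed the test (exact permutation p = 0.0887 and 0.0519). In norm5 all 146 IC cells kept the name, and without norm3 and norm4 the unadjusted test called IRI short (exact permutation p = 0.0143).

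Few cells joined the cluster in the second annotation, and the fraction of cells outside IC that did so overlapped between the groups. Of the cells outside IC in the first annotation, 63 of 36354 were named CD-IC in control (0.173%), 76 of 40273 after short (0.189%) and 42 of 34941 after long ischemia (0.120%). The percentage per library was 0.131 to 0.382 in control, with 0.153 in norm5, 0.148 to 0.233 after short and 0.0693 to 0.194 after long ischemia. These values were chosen after seeing the data and are given without a test. Because IC cells were fewer after IRI, the joined cells took a larger share of a library's CD-IC cells there. This share was 2.78 to 6.41% in control, 14.2 to 28.1% after short and 18.2 to 50.0% after long ischemia, and it is not independent of the fall of IC. Over all groups they came mainly from PT S3 (41 cells), PC (33), LOH (30), PT S1 (23) and GEC (22), the glomerular endothelial cells.

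PC cells that were renamed CD-IC occurred after IRI and in no control library. Of 1580 control PC cells 0 were renamed, which allows a share of up to 0.190% over these pooled cells, a limit for counting error only that does not cover the spread between libraries. In IRI short 23 of 1972 were renamed, with 2 to 7 cells in each library, and in IRI long 10 of 904, with 1 to 6 cells in each library at 1 and 3 d and 0 at 14 d. The percentage of PC cells was 0.709 to 2.13 in IRI short and 0 to 1.54 in IRI long. This pattern was noticed in the data and is given without a test. The numbers are small, and the libraries at 14 d after long ischemia held only 32 and 47 PC cells.

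**Figure D4:**
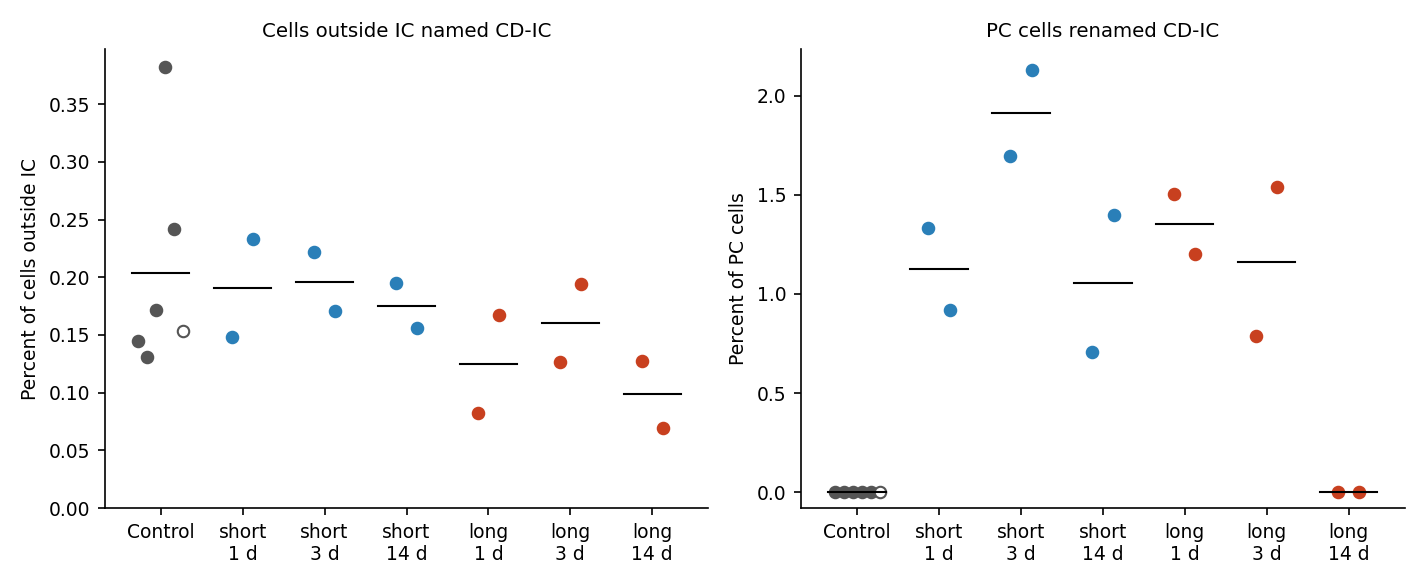
Cells outside IC in the first annotation that were named CD-IC in the second, as percent of a library's cells outside IC (left), and PC cells renamed CD-IC, as percent of its PC cells (right), by group and day. Points are libraries, lines are group means and the open circle is norm5; on the left the groups overlap, with the highest value of 0.382% in a control library, and on the right all control libraries lie at 0.

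In the first UMAP, a map of the cells in which near cells have similar profiles, IC cells formed a nearly closed group. Of the 30 nearest cells of an IC cell, 97.4% were IC cells on average, and no other cluster reached 1%. Library means were 97.5 to 99.5% in control, 92.0 to 97.5% after short and 40.6 to 99.7% after long ischemia. IRI short differed from control by -3.76 percentage points (exact permutation p = 0.00433, adjusted p = 0.00917). IRI long differed by -14.6 (exact permutation p = 0.0238, adjusted p = 0.0451), and by -5.89 without IRF7, which held 6 IC cells with a mean of 40.6%. Without any 1 control library the exact p for IRI long was 0.0801 to 0.0952, and it was 0.186 without norm3 and norm4. The lowest control library was norm5 with 97.5%, from which IRI short differed by -2.62 and IRI long by -13.4 percentage points. IC cells with under 50% IC cells among their neighbours were 19 of 1518 in control (1.25%), 21 of 357 after short (5.88%) and 12 of 136 after long ischemia (8.82%). Of all cells they were 0.0502% in control (19 of 37872), 0.0517% after short (21 of 40630) and 0.0342% after long ischemia (12 of 35077), so that their share of IC cells and the neighbour means are not independent of the fall of IC. Of these 52 cells 57.7% were named CD-IC in the second annotation, compared with 97.1% of the other IC cells.

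In the second UMAP most CD-IC cells formed an island with a tail that points towards the cluster named DCT2, CNT, CD-PC, whose name joins the connecting tubule and principal cells. The limits of the tail were set after seeing the map, and its share is given as a description. The tail held 5.49 to 13.8% of the island's cells in control libraries (10.0% in norm5), 15.0 to 22.4% in IRI short libraries, and 16.7 to 20.6% in the 3 IRI long libraries of 1 and 3 d with at least 20 cells in the island. In the other IRI long libraries it held 3 of 4 cells at 3 d (IRF7), and 0 of 12 and 3 of 11 cells at 14 d. It held 8.0% in the VX-765 library and 12.9% in the liproxstatin library, for which the IRI long libraries of the same day have too few cells to compare. Of the 33 PC cells that were renamed CD-IC, 29 lay in the tail, and 76.9% of its 251 cells from the first set of libraries had been IC, compared with 96.5% in the rest of the island. Because these renamed PC cells came from IRI libraries only, the share of the tail is not independent of the renaming or of the fall of IC.

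The inhibitor libraries were 1 per treatment, so that they are described without a test. VX-765 inhibits caspase-1, which drives pyroptosis, and liproxstatin inhibits ferroptosis. In the second annotation CD-IC cells were 267 of 10610 cells with VX-765, or 2.52% (exact 95% binomial interval 2.23 to 2.83%). With liproxstatin they were 101 of 12605, or 0.801% (0.653 to 0.973%). The 2 IRI long libraries of 14 d without inhibitor held 0.255% (0.151 to 0.403%) and 0.207% (0.116 to 0.342%), and control libraries 2.34 to 7.99%. The VX-765 library lay above norm5 (2.34%) and below the other 5 control libraries, which started at 3.18%. The liproxstatin library lay between the untreated IRI long and the control libraries. All of these intervals cover counting error only.

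Immune cells made up 11.8 and 5.13% of the VX-765 and liproxstatin libraries, compared with 75.2 and 64.5% of the IRI long libraries of 14 d. Among non-immune cells CD-IC cells were 2.85% with VX-765 (2.53 to 3.21%) and 0.846% with liproxstatin (0.690 to 1.03%), compared with 1.05% (0.624 to 1.65%) and 0.598% (0.335 to 0.985%) in IRI long at 14 d. In this frame the liproxstatin library lay between both IRI long libraries, whereas the VX-765 library was above them. The share of CD-IC among CD-IC and DCT2, CNT, CD-PC cells was 35.3% with VX-765 (31.9 to 38.8%), 24.4% with liproxstatin (20.3 to 28.8%), 15.0 and 11.1% in IRI long at 14 d and 23.1 to 53.6% in control. In this frame the VX-765 library lay within the control range, and the liproxstatin library lay above norm5 (23.1%) and below the other control libraries, which started at 25.4%. CD-IC cells per 100 PT cells were 4.28 with VX-765, 0.970 with liproxstatin, 5.00 and 1.85 in IRI long at 14 d and 4.86 to 19.6 in control.

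**Figure D5:**
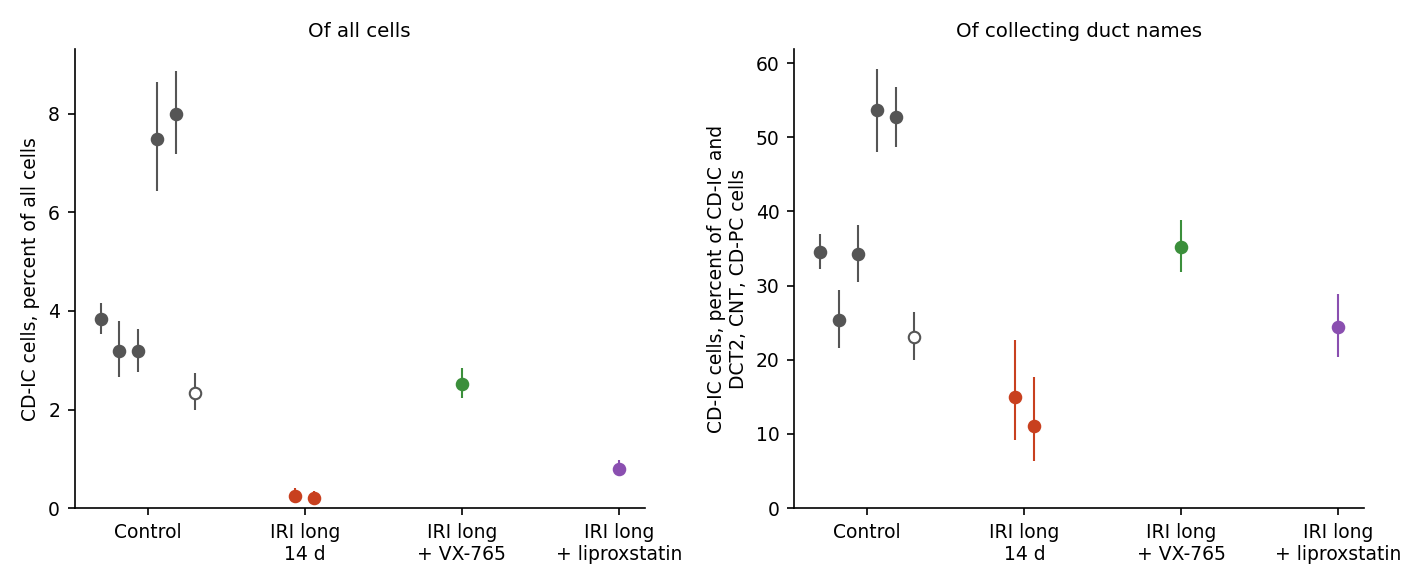
CD-IC cells of the second annotation as percent of all cells (left) and of CD-IC and DCT2, CNT, CD-PC cells (right) in control, IRI long 14 d and inhibitor libraries. Points are libraries with exact 95% binomial intervals that cover counting error only, and the open circle is norm5; on the left the VX-765 library at 2.52% lies between norm5 and the other control libraries, and the liproxstatin library at 0.801% lies below all of them.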

How the data were processed

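The authors made 10X 3' v3 libraries, aligned them with Cell Ranger (mm10), filtered cells and doublets, used LIGER for integration and assigned cluster names manually. The methods describe the making of the second annotation for another cell number only. The deposited tables give per cell a cluster name, a group and UMAP coordinates, here a score without unit. Gene values were not analysed here. Cells of clusters were counted per library and given as percent with Clopper-Pearson intervals at 95% confidence. Logits of the fractions of 18 clusters (0.5 cells added) were compared with limma 3.58.1 in R 4.3.3 with 7 group means and Benjamini-Hochberg adjustment at 0.05. The code was run on simulated counts in which each cluster was drawn on its own. Such counts cannot show how the calls behave where a rise of some clusters lowers the fractions of others. Ratios and shares were tested by two-sided exact permutation of libraries between groups (924 ways, or 216 within days). Non-immune cells leave out 8 immune clusters in the first annotation. In the second they leave out its own immune clusters and a cluster not named after a cell type. Both frames differ in the same library, with 72.2 and 51.0% immune cells in IRF4 in the first and second annotation. Ratios had 0.5 cells added for the log2 values. Python 3.11.15, numpy 2.4.6, pandas 2.3.3, scipy 1.17.1 and matplotlib 3.10.9 were used. Clusters are named in the text if they are IC, CD-IC or tubule clusters, or if they give or receive at least 1% of IC cells between annotations. The cell type, its markers and the comparisons were chosen with earlier results of these data known. Alternatives were other transformations, denominators and annotations, leaving out libraries, norm5 alone as control and, chosen after seeing the data, the barcode set as a term, control without norm3 and norm4, ratios to PC, DCT and LOH, comparisons by day for shares, and the renaming of PC cells. The 36 adjusted comparisons include 6 on cells named CD-IC from PC or from outside IC, which are given without a test. Not every value from leaving out a library is reported here.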

Additional observations from a re-analysis of the deposited data

Results flagged for a closer look

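Of 36 groups of 6 libraries looked at for a library far from the others, 3 held one, and chance gives about 1 in 20. The IRI long library IRF4 at 3 d held more IC cells among non-immune cells (2.26%) than the other IRI long libraries. The same library also held the highest share of IC cells among distal tubule cells in its group (6.52%). In the IRI long library IRF7 at 3 d, with 6 IC cells, a mean of 40.6% of the 30 nearest cells in the first map were IC cells, far below the other IRI long libraries.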

How the results depend on the processing

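No paired analysis was possible because the library names carry no replicate numbers of the sample labels, and a replicate block was not run. The fall of the IC fraction of all cells in IRI short and IRI long against control was called under all alternatives with a test except the barcode set as a term, which lost IRI short (-1.01), its 1 d (-1.12), 3 d (-0.996) and 14 d (-0.91). With this term control rests on norm5 alone, so it is no separate alternative to norm5 as control. Against norm5 alone the values were -1.01 and -1.90 for the logit of all cells, -0.992 and -1.51 percentage points for non-immune cells, -15.9 and -17.1 for the collecting duct share and -1.49 and -1.31 for the distal share, in IRI short and IRI long. IRI long against IRI short was lost with the arcsine (-0.0316), the centred log-ratio (-0.73) and non-immune cells (-0.39), and at 14 d with the arcsine (-0.0556) and non-immune cells (-0.78); IRI short at 14 d was lost with non-immune cells (-0.99). The second annotation gave a call for IRI long against IRI short among non-immune cells (-0.561). Without norm3 and norm4 the ratio to PT in IRI short turned to 0.45, IRI long at 14 d against earlier days (-1.04) and IC cells renamed CD-IC in IRI short (-6.09) gained a call, and neighbours in IRI long (-14.5) lost it. The CD-IC fraction with VX-765 was 2.85% of non-immune cells and 35.3% of the collecting duct, and with liproxstatin 24.4% of the collecting duct. Leaving out 1 library in turn moved IRI long against IRI short from -1.02 to -0.76, at 1 d from -0.78 to 0.0087, and at 14 d from -2.03 to -1.33. It moved IRI short at 14 d from -1.92 to -1.22 and IRI short, 14 d against earlier days, from -0.21 to 0.50. For IRI long against IRI short the ranges were -0.736 to -0.307 for non-immune cells, -3.92 to 1.58 for the collecting duct, -0.393 to 0.750 for the distal share, -1.15 to -0.67 for the ratio to PT, -10.8 to -3.03 for renamed cells, -0.024 to 0.34 for the ratio to LOH and -0.28 to 0.15 for the ratio to PC. Against control they were -0.33 to 0.11 for the ratio to PT in IRI short, -4.90 to -2.98 and -13.4 to -6.77 for renamed cells in IRI short and IRI long, and -17.7 to -5.89 for neighbours in IRI long. The cause was not tested in any of these. The other 398 leave-one-out values kept direction and call. A further 163 values of these comparisons were counted as unchanged, which for those with a test means the same direction and call. For values without a test it means only a distance from the main value below the SD, or within the counting interval of an inhibitor library. Such a value can turn sign, as did the ratio to PT in IRI short against norm5 alone (0.12, compared with -0.15). Depth limits IRI long most, with 6 to 57 IC cells per library.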
